A study of Mus musculus with 49 samples.

Results

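The solute carrier genes of single neurons of the mouse somatosensory cortex were described. The members are the rows of the deposited table whose symbol has the form of Slc, a family number and a letter, without Slc17a7, Slc32a1 and Slc1a3, which serve as cell type markers. This rule found 142 of 9020 genes, of which 24 belong to the Slc25 family of mitochondrial carriers and 118 to 36 other families. Slc4a1ap, Slc7a6os and Slc9a3r2 follow the name rule but are named for a neighbouring or binding partner and are not carriers. The 49 cells form 1 group: wild-type neurons of CD1 mice, labelled at E13.5 with FlashTag, a dye injected into the ventricle that marks cells dividing at its wall, and collected at P7 with a patch pipette. They were sequenced in 5 library pools of 12, 9, 9, 9 and 10 cells, and cells are named below by their number in the labels and their pool. The study drew the cells from several experiments, but the labels tie no cell to an experiment or an animal, so the cells are treated as 1 sample. Values are therefore a description of these cells, and no test between cells or pools was made.

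Solute carriers are membrane proteins that move ions, metabolites, nucleotides and metals down or, coupled to another ion, against a gradient. Those of the Slc25 family sit mostly in the inner mitochondrial membrane, where they exchange ADP for ATP and carry phosphate, citrate and amino acids. In the cortex, plasma membrane carriers clear glutamate and GABA, set the chloride gradient on which inhibition depends, and feed neurons with glucose, lactate and amino acids.

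Levels are given in RPM, for which each cell's reads were scaled to one fixed total. The total of a cell lay between 209850 and 35342325 reads (median 1240101), so a single read stood for up to 4.77 RPM. A member was called present in a cell at 10 RPM or more. Each gene of the table reaches 100 RPM in at least 2 cells, so every member passed through its highest cells, and the same holds for the genes it is set beside. GENCODE M21 annotates 47 protein-coding Slc25 genes and 321 other genes that follow the rule. Those without a row were not analysed here. All 49 cells held at least 2 of 4 neuron markers (Stmn2, Map2, Snap25, Syt1) above the same limit, and these markers summed to 974 to 15044 RPM with a median of 5639 RPM. At least 2 markers were present in 35 cells for excitatory neurons, in 17 for inhibitory neurons, in 6 for astrocytes, in 17 for the oligodendrocyte lineage and in 9 for microglia. Of the endothelial and choroid plexus lists 1 marker each was in the table, Flt1 with a median of 0 and Ttr with a median of 95.3 RPM. Hemoglobin genes summed to a median of 894 RPM and reached 688002 RPM in cell 1 of pool 3.

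At the limit of 10 RPM the Slc25 carriers were the more widely present members, and the size of their lead depended on that limit (see the closing section). Of the 24, 12 (50%) were present in at least 25 of the 49 cells, against 22 of the 118 members of other families (18.6%) and 38.2% of all genes of the table. At least 1 read was found in every cell for 3 Slc25 carriers (12.5%), Slc25a4, Slc25a3 and Slc25a5. The same held for 1 other member (0.85%), Slc39a2, and for 8.1% of all genes. A median of 0 RPM was found for 5 Slc25 carriers (20.8%) and 32 other members (27.1%), beside 19.4% of all genes. A cell held between 4 and 22 of the Slc25 carriers, with a median of 13, and between 13 and 81 of the other members, with a median of 40. Summed over its members, the Slc25 family ranged from 821 to 6653 RPM per cell with a median of 4193 RPM. The other families together ranged from 1769 to 12988 RPM with a median of 4886 RPM. The 24 mitochondrial carriers held more reads than the 118 others together in 20 of the 49 cells.

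**Figure D1:**
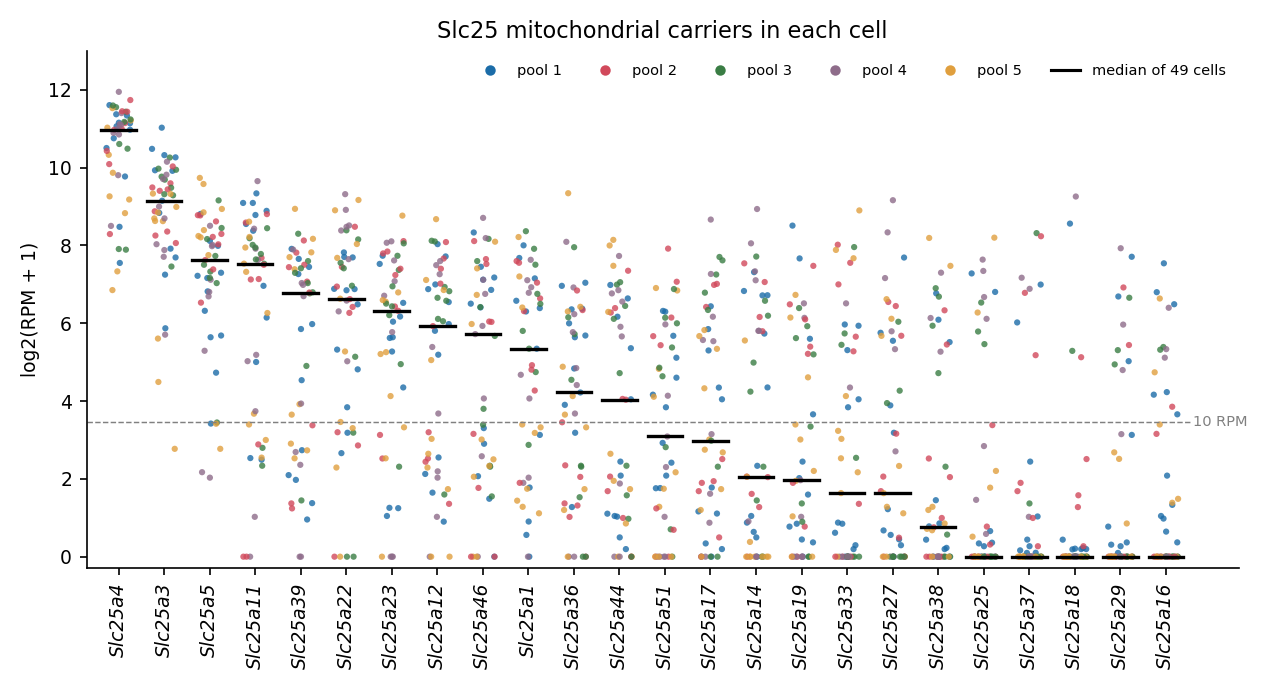
Level of each of the 24 Slc25 carriers, as log2(RPM + 1) on the vertical axis, with 1 point per cell coloured by library pool and a black bar at the median of the 49 cells. Slc25a4 stands above 100 RPM in all 49 cells, and 12 carriers, from Slc25a4 to Slc25a44, lie at or above the dashed line of 10 RPM in at least 25 cells.

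The ADP/ATP carrier Slc25a4 (chr8:46206797-46211284, minus strand, GRCm38, as annotated by GENCODE M21) led the family. Its level ranged from 114 to 3940 RPM, with a median of 2007 RPM and quartiles of 892 and 2411 RPM. Its median was 771 RPM in pool 5 and 2070, 2040, 2306 and 2029 RPM in pools 1 to 4. It was present in all 49 cells (exact 95% interval of the share of cells 92.7% to 100%, counting error only, as for every interval below), and was at 1000 RPM or more in 35. It was the highest of all 142 members in 36 cells, and its rank among the 9020 genes ranged from 10 to 1280, with a median of 32. In the other 13 cells 11 other members were highest, of which Slc1a2 and Slc22a17 led in 2 cells each. Slc25a4 made up between 8.96% and 74.9% of the Slc25 sum, with a median of 43.7%.

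Slc25a3, which imports the phosphate for ATP synthesis, and the second ADP/ATP carrier Slc25a5 followed. Slc25a3 ranged from 5.83 to 2080 RPM with a median of 566 RPM and was present in 48 cells. Slc25a5 ranged from 3.09 to 850 RPM with a median of 196 RPM and was present in 43 cells. Together with Slc25a4 they held a median of 66.7% of the Slc25 sum, and 24.7% in the cell where their share was lowest. Per kilobase of exons the median levels were 853 RPM for Slc25a4, 119 RPM for Slc25a5 and 102 RPM for Slc25a3, so that the order of the last pair turned. The kit reads 3′ ends, and over 8815 genes mean RPM and exon length had a Spearman rho of -0.02, so RPM itself did not follow length here and the order of Slc25a5 and Slc25a3 depended on the scale.

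Within single cells Slc25a4 exceeded Slc25a5 in 47 of 49 cells (95.9%, interval 86.0% to 99.5%), with a median ratio of 10.2. Both exceptions lay in pool 5. In cell 8 Slc25a4 stood at 114 and Slc25a5 at 762 RPM, and in cell 1 at 160 and 214 RPM. These cells had 209850 and 424976 reads. Over the 49 cells the log2 levels of both carriers had a Pearson r of 0.33. The annotation also lists a pseudogene copy, Slc25a5-ps, and how reads with several matches were counted is not given in the sources used here, so the level of Slc25a5 is uncertain.

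Because Slc25a4, Slc25a5 and Slc25a3 hold most of the Slc25 sum in the median cell, the 250 bases before their first listed RefSeq start (build GRCm38.p6) are shown. They lie on the minus strand at chr8:46211063-46211312 for Slc25a4, on the plus strand at chrX:36795347-36795596 for Slc25a5 and on the minus strand at chr10:91123968-91124217 for Slc25a3. In GENCODE M21 Slc25a4 and Slc25a3 start further upstream, so that 222 and 92 of their 250 bases lie inside the annotated gene, while those of Slc25a5 lie outside it. Capitals mark CG dinucleotides, which are frequent in promoters of widely expressed genes.
Slc25a4: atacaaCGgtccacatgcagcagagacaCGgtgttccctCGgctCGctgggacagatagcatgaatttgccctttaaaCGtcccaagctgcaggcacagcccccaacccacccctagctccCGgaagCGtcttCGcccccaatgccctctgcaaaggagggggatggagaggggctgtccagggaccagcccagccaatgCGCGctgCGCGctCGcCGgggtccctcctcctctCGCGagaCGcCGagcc
Slc25a5: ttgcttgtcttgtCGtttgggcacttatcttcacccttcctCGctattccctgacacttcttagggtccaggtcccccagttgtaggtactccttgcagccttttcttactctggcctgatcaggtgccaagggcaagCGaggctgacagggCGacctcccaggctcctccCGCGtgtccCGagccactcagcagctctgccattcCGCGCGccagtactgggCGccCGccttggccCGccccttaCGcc
Slc25a3: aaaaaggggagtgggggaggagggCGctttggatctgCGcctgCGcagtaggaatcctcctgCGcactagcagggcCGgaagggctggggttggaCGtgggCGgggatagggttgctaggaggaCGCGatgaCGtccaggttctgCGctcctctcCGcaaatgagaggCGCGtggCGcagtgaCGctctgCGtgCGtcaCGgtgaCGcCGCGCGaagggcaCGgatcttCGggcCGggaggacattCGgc
The windows of Slc25a4, Slc25a5 and Slc25a3 held 18, 14 and 27 of them. A promoter was listed for 18 of the 24 Slc25 carriers and for 93 of the 118 others, and the median was 18 CG dinucleotides over the former and 13 over the latter, beside 17 over the genes of the table and 6 over all 27025 promoters. The TATA box letters TATAAA, searched on both strands, stood in none of the 3 windows, in 1 of the 18 Slc25 promoters (5.56%), in 7 of the 93 others (7.53%), in 6.14% of those of the table's genes and in 12.97% of all promoters. A match is a description of the letters and not of binding.

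The carriers of metabolites followed at lower levels. Slc25a11, which exchanges oxoglutarate for malate in the malate-aspartate shuttle, ranged from 0 to 802 RPM with a median of 183 RPM and was present in 37 cells. Its exons overlap those of Rnf167. Slc25a12, the aspartate-glutamate carrier of the same shuttle, ranged from 0 to 407 RPM with a median of 59.7 RPM and was present in 30 cells. Slc25a11 and Slc25a12 stood at 100 RPM or more in 30 and 18 of 49 cells and were without a read in 3 cells each. Every gene of the table reaches 100 RPM in at least 2 cells.

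Slc25a39, which imports glutathione, had a median of 108 RPM and was present in 33 cells. The ATP-magnesium and phosphate carrier Slc25a23 had a median of 78.8 RPM (37 cells), Slc25a46, an outer membrane protein of mitochondrial shape, one of 51.7 RPM (28 cells), and the citrate carrier Slc25a1 one of 39.6 RPM (32 cells). Each of these 4 reached at least 328 RPM in its highest cell. The mitochondrial glutamate carriers differed: Slc25a22 had a median of 98.0 RPM and was present in 38 cells, while Slc25a18 had a median of 0 and was present in 4. Slc25a22 exceeded Slc25a18 in 43 of the 45 cells with a read of either (95.6%, interval 84.9% to 99.5%).

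Among the pyrimidine nucleotide carriers, Slc25a36 exceeded Slc25a33 in 30 of 46 cells by RPM, but in 22 of 46 per kilobase of exons, since the exons of Slc25a36 span 9.59 kb and those of Slc25a33 1.89 kb. The order within this pair thus depended on the scale, and neither gene reached 10 RPM in 15 cells. Slc25a37, a mitoferrin that imports iron for heme, was present in 8 cells. Its highest level, 317 RPM, was in cell 1 of pool 3, the cell with 688002 RPM of hemoglobin, where it was the highest of all members. The next cell, cell 4 of pool 2 with 300.1 RPM, had 961 RPM of hemoglobin, and over the 49 cells r was 0.29 and rho 0.06. The part of blood cell RNA in these levels was not tested.

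The Slc25 sum was set beside the sum of 76 nuclear genes of oxidative phosphorylation (OXPHOS), the respiratory complexes and ATP synthase that depend on these carriers. On a log2 scale the sums had a Pearson r of 0.49 and a Spearman rho of 0.45 over the 49 cells. Within pools 1 to 5, r was 0.30, 0.04, 0.81, 0.82 and 0.50. It was 0.40 without the 2 cells farthest from the median, and 0.26 when Slc25a4 and Slc25a5 were left out of the Slc25 sum. Without both carriers, r within pools 1 to 5 was 0.33, 0.02, 0.54, 0.27 and 0.13. The Slc25 sum without them had an r of 0.60 with log10 reads per cell. With the 10 mitochondrially encoded genes of the table the Slc25 sum had an r of -0.57, which was negative in each pool, from -0.75 to -0.31. The Slc25 sum also had an r of 0.51 with log10 reads per cell and of -0.30 with the sum of the other families, and that other sum an r of -0.39 with OXPHOS. Both of these were positive in pool 3 (0.50 and 0.56) and negative in the other 4 pools, and without the 2 cells farthest from the median the second was -0.65. All these quantities share the library, its depth and its fixed total of RPM, and their separate parts were not tested.

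**Figure D2:**
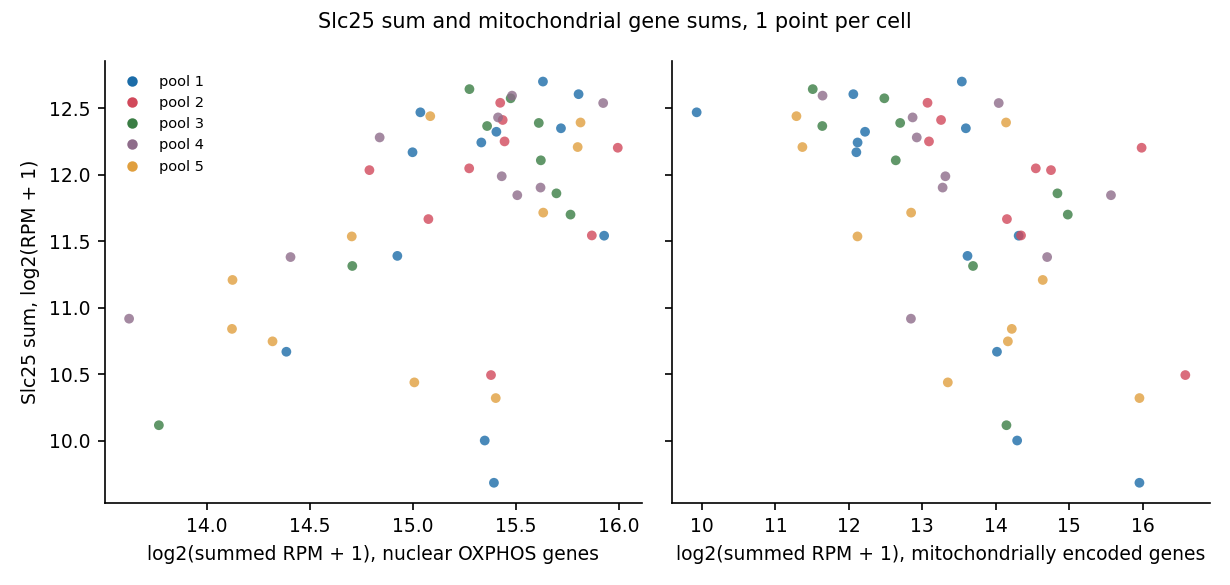
Summed Slc25 level as log2(RPM + 1) on the vertical axis against the sum of nuclear OXPHOS genes (left) and of mitochondrially encoded genes (right) as log2(RPM + 1), with 1 point per cell coloured by library pool. The Slc25 sum tends to rise to the right in the left panel (r 0.49) and to fall in the right panel (r -0.57).

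Among the other families the highest median belonged to Slc22a17 (chr14:54906304-54913132, minus strand), a receptor of the siderophore-binding protein lipocalin. It ranged from 0 to 1537 RPM with a median of 184 RPM and was present in 45 cells (91.8%, interval 80.4% to 97.7%). Per kilobase of exons it also led, at 40.8 RPM, followed by Slc3a2 at 28.2 RPM. Its median was 716 RPM in pool 5 and 46.3, 209, 198 and 223 RPM in pools 1 to 4, and 6 of the 9 cells at 700 RPM or more came from pool 5. Its r with log10 reads was 0.01. The highest member of these families in a cell was 1 of 25 different genes, with Slc22a17 in 7 cells and 15 genes in 1 cell only.

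**Figure D3:**
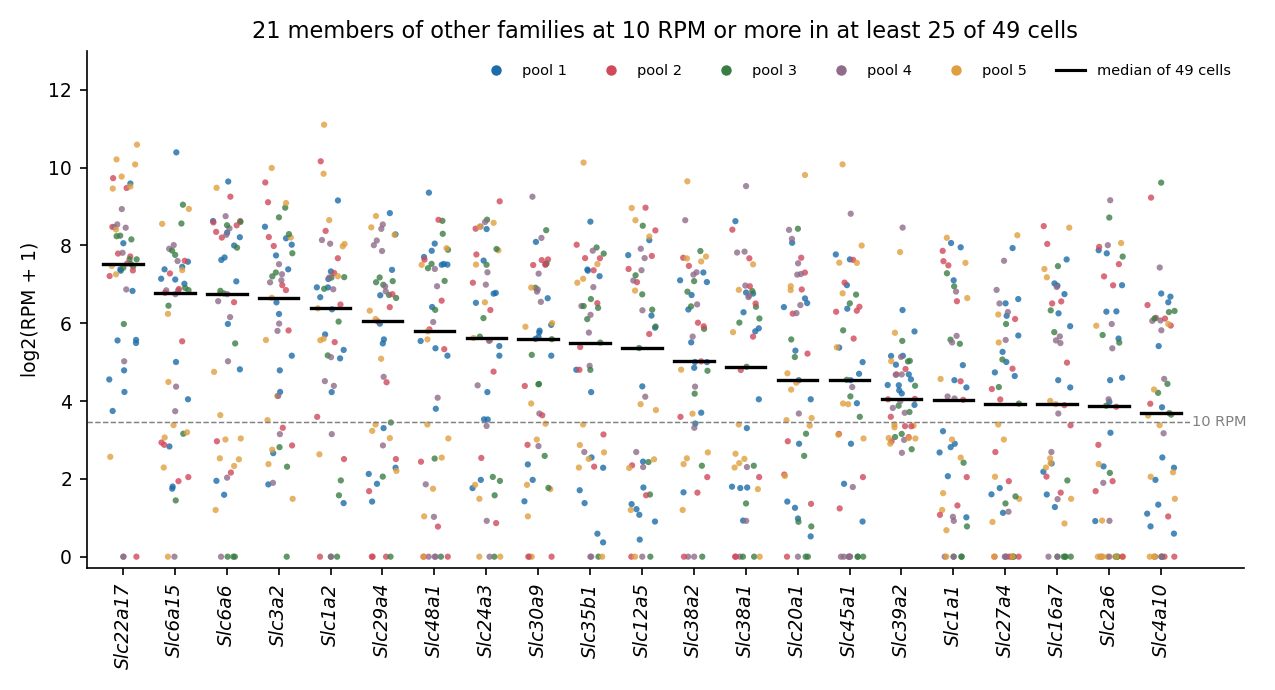
Level of 21 of the members of other families that were present in at least 25 of 49 cells, as log2(RPM + 1), with 1 point per cell coloured by library pool and a black bar at the median. Slc22a17 has the highest median, and Slc39a2 is the narrowest column, with no cell at 0.

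The families that mostly carry neurotransmitters and amino acids at the plasma membrane held 27 of the 118, and 8 of these were present in at least 25 cells. The 27 were grouped by family, and include Slc7a6os, which is no carrier, and carriers of other membranes such as the lysosomal Slc36a1 and the vesicular Slc6a17. Their sum ranged from 204 to 6018 RPM with a median of 1535 RPM. Slc6a15, which takes up branched-chain amino acids and proline, had a median of 109 RPM and was present in 34 cells. Slc6a6, the taurine transporter, had a median of 106 RPM and was also present in 34 cells. In pools 1 to 5 the medians of Slc6a15 were 133, 45.3, 119, 114 and 15.4 RPM. Those of Slc6a6 were 201, 324, 108, 93.7 and 7.13 RPM. Slc3a2, the heavy chain that carries amino acid exchangers of the Slc7 family to the membrane, had a median of 99.5 RPM and was present in 37 cells.

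Slc3a2 exceeded Slc7a5, the light chain of the LAT1 dimer, in 40 of 49 cells (81.6%, interval 68.0% to 91.2%), and Slc7a5 had a median of 4.71 RPM. None of the 8 Slc7 members was present in at least 25 cells. The glutamine carriers Slc38a2 and Slc38a1 had close medians of 31.4 and 28.4 RPM. Slc38a2 was the higher in 26 of 46 cells by RPM and in 35 of 46 per kilobase. The interval of the first share, 41.1% to 71.1%, holds the even split.

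Slc1a2, the glutamate transporter best known from astrocytes, was present in 39 cells and ranged from 0 to 2193 RPM with a median of 82.4 RPM. Its highest cell, cell 4 of pool 5, had no astrocyte marker of 4 (Slc1a3, Aqp4, Gja1 and Aldh1l1) at 10 RPM, with Slc1a3 at 2.86 RPM and Aqp4 at 0. Its second highest cell, cell 5 of pool 2 with 1143 RPM, had 3 of the 4, with Slc1a3 at 1121 RPM. Of the 39 cells with Slc1a2, 6 had at least 2 astrocyte markers, and 33 did not. All 6 cells with at least 2 astrocyte markers had Slc1a2, with a median of 152 RPM, against 64.8 RPM in the other cells. Slc1a2 exceeded the neuronal glutamate transporter Slc1a1 in 38 of 47 cells by RPM (80.9%) and in 30 of 47 per kilobase (63.8%).

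Slc4a4, a sodium bicarbonate cotransporter of astrocytes, was present in 6 cells, of which 4 had at least 2 astrocyte markers. Its highest levels were 210 RPM in cell 5 of pool 2 and 121 RPM in cell 3 of pool 1. Of the 142 members it had the highest r with the summed astrocyte markers, 0.53 (rho 0.39), while r was 0.16 for Slc1a2, 0.03 for Slc25a18 and -0.12 for Slc6a11. The astrocyte-enriched carrier list held 4 of its 11 genes in the table (Slc1a2, Slc4a4, Slc6a11 and Slc25a18), and 1 of these, Slc1a2, was present in at least 25 cells. Of the vascular-enriched list 6 of 12 were in the table and Slc3a2 and Slc6a6 were present in at least 25 cells, while the glucose carrier Slc2a1 of the blood-brain barrier was present in 5. Of the microglia-enriched list 1 of 7 was in the table, the folate carrier Slc46a1, present in 14 cells, of which 4 had at least 2 microglia markers. Of the neuron-enriched list 17 of 18 were in the table, and 7 of these were present in at least 25 cells. That share is near the 38.2% of all genes. Being in the table itself means at least 100 RPM in at least 2 cells. The part of RNA from neighbouring cells in these levels was not tested.

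The families of chloride, bicarbonate, proton and calcium exchangers held 22 members, Slc4a1ap and Slc9a3r2 included, which are no carriers, and 3 of the 22, Slc24a3, Slc12a5 and Slc4a10, were present in at least 25 cells. Slc12a5, the potassium-chloride cotransporter KCC2 that lowers chloride in maturing neurons, ranged from 0 to 499 RPM with a median of 40.1 RPM and was present in 29 cells. Slc12a2, the cotransporter NKCC1 that raises chloride, ranged from 0 to 287 RPM with a median of 0.58 RPM and was present in 12. Slc12a5 exceeded Slc12a2 in 38 of 47 cells (80.9%, interval 66.7% to 90.9%), and at 10 RPM or more 9 cells held both and 17 neither. Its highest cells were cell 6 of pool 2 and cell 10 of pool 5, with 499 and 497 RPM.

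The calcium exchangers Slc24a3 and Slc8a2 had medians of 48.1 and 7.21 RPM. Slc8a2 exceeded Slc8a1, a close relative, in 31 of 42 cells (73.8%), while neither gene reached 10 RPM in 24 cells. Slc4a10, a neuronal bicarbonate transporter, ranged from 0 to 781 RPM with a median of 11.9 RPM and was present in 27 cells.

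Carriers of sugars and monocarboxylates were 15 members with a summed median of 421 RPM. In both pairs compared, the form best known from neurons exceeded that best known from glia and vessels in most cells with a read of either. Such a read may lie below 10 RPM. Neither gene reached that limit in 25 of the 49 cells for Slc2a3 and Slc2a1, and in 17 for Slc16a7 and Slc16a1. Slc2a3 (GLUT3) exceeded Slc2a1 (GLUT1) in 36 of 41 cells (87.8%, interval 73.8% to 95.9%), with medians of 6.30 and 0 RPM. Slc16a7 (MCT2), which takes up lactate and pyruvate, exceeded Slc16a1 (MCT1) in 37 of 45 cells by RPM (82.2%, interval 67.9% to 92.0%) and in 30 of 45 per kilobase. Slc16a7 had a median of 14.1 RPM and was present in 27 cells. The sugar carriers Slc45a1 and Slc2a6 had medians of 22.2 and 13.7 RPM and were present in 31 and 26 cells.

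**Figure D4:**
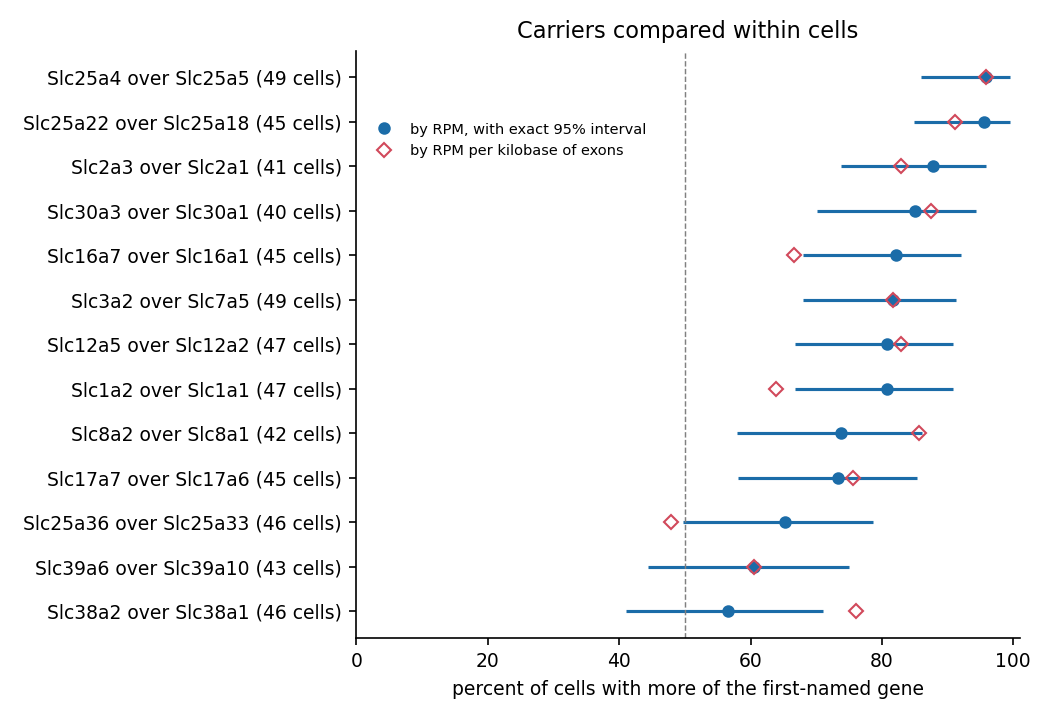
Share of cells, among those with a read of either gene, in which the first-named gene of each of 13 pairs had the higher level, by RPM with its exact 95% interval (filled circles) and by RPM per kilobase of exons (open diamonds), with a dashed line at an even split. Slc25a4 over Slc25a5 and Slc25a22 over Slc25a18 stand highest, and Slc25a36 over Slc25a33 crosses the line on the second scale. A read of either gene may lie below 10 RPM.

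Metal carriers were 19 members, of which Slc30a9, a zinc transporter, and Slc39a2 were present in at least 25 cells. Slc30a9 ranged from 0 to 608 RPM with a median of 47.1 RPM. Slc30a3, which loads zinc into synaptic vesicles, exceeded the zinc exporter Slc30a1 in 34 of 40 cells (85%), while neither gene reached 10 RPM in 27 cells. Slc30a3 was present in 19 cells. At least 2 excitatory markers were held by 15 of these 19, by 11 of the 12 cells where it reached 100 RPM and by 35 of all 49. Its median was 4.05 RPM in the cells with these markers and 3.52 RPM in those without. The zinc importers Slc39a6 and Slc39a10 did not take a fixed order, with Slc39a6 the higher in 26 of 43 cells (60.5%, with an interval from 44.4%). Neither importer reached 10 RPM in 21 cells.

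Slc39a2 (chr14:51892889-51896745, plus strand), known as a zinc importer, stood apart in how evenly it was found. It had a read in all 49 cells, at 5.36 to 350 RPM with a median of 15.6 RPM, and for its mean it had the third lowest spread between cells of all 9020 genes. Only A430010J10Rik and Wdr89 had a lower one. The 2 highest cells, cell 4 of pool 4 with 350 RPM and cell 1 of pool 5 with 226 RPM, stood apart from the next, at 79.9 RPM. Its exons overlap those of Mettl17 on the same strand, so its reads cannot be told apart from those of that gene where they overlap. Its r with log10 reads was -0.27.

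Carriers of nucleotide sugars and nucleosides were 19 members with a summed median of 795 RPM. Slc29a4, a transporter of monoamines and adenosine, had a median of 65.2 RPM, and Slc35b1, an ATP carrier of the endoplasmic reticulum, one of 44.3 RPM. Both were present in 31 cells. Of the vesicular and organic anion group, 3 members, none was present in at least 25 cells. The vesicular glutamate transporter Slc17a6 was present in 12 cells and reached 335 RPM. At least 2 excitatory markers were held by all 12, and by 35 of all 49 cells. The median of Slc17a6 was 0.97 RPM in the cells with these markers and 0 in those without. Slc17a7, the marker kept out of the members, exceeded it in 33 of 45 cells (73.3%), while neither reached 10 RPM in 17 cells. Of the 13 remaining members, 4 were present in at least 25 cells: Slc22a17, the heme carrier Slc48a1 with a median of 54.4 RPM, the phosphate carrier Slc20a1 with 22.2 RPM and the fatty acid carrier Slc27a4 with 14.3 RPM. The medians of Slc48a1 were 180, 39.3, 169, 2.63 and 8.37 RPM in pools 1 to 5.

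The spread between cells was taken as the SD of log2(RPM + 1), relative to that of genes of the same mean. By this measure 1 Slc25 carrier (4.17%) and 9 other members (7.63%) were above the 90th percentile of all genes, which by construction holds 10% of them, and 3 and 5 were at or below the 10th. The median percentile was 39.1 for Slc25 and 53.4 for the other families. Slc25a11 was the most variable mitochondrial carrier (percentile 93.6), and Slc25a4 stood at 81.6, Slc25a3 at 34.3 and Slc25a5 at 9.40. Slc25a4 thus had a larger spread than most genes of its level, and Slc25a5 a smaller one. These percentiles do not rank the spread of both carriers against each other, since their levels differ. Among the others Slc35f1, an orphan of the nucleotide sugar family, was highest (98.5), with 17 cells at 100 RPM or more and 8 without a read. Slc35a1 (97.1), the CMP-sialic acid carrier, and Slc6a6 (95.9) came next.

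**Figure D5:**
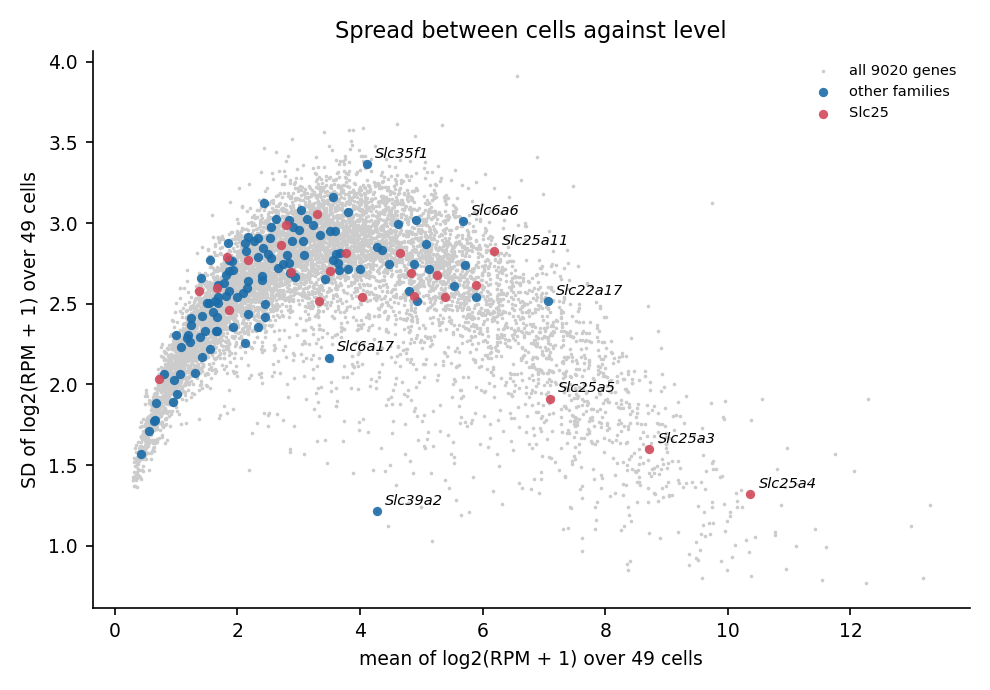
SD of log2(RPM + 1) over the 49 cells against its mean, with 1 point per gene: all 9020 genes in grey, 115 of the 118 members of other families in blue and the 24 Slc25 carriers in red. Slc39a2 lies far below the genes of its mean and Slc35f1 near their upper edge, while Slc25a3 and Slc25a4 lie at the right with a small SD.

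Differences between library pools accounted for a median of 11.03% of the variance of the Slc25 carriers, 9.74% of that of the other members and 9.91% of that of all genes, beside the 8.33% that pools without influence would give on average. The largest shares were those of Slc6a17 (38.5%), a synaptic vesicle carrier of neutral amino acids, Slc30a6 (37.9%) and Slc41a3 (33.2%). The medians of Slc6a17 were 4.02, 57.6, 2.89, 36.2 and 5.65 RPM in pools 1 to 5. The Slc25 sum had a median of 2666 RPM in pool 5, against 4060 to 4722 RPM in the other pools, and pool 5 also had the lowest median depth, 814366 reads. The parts of the pool, its depth and its cells cannot be told apart.

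A single cell held over 50% of the RPM summed over all 49 cells for 1 Slc25 carrier (4.17%) and 8 other members (6.78%), a share near the 6.59% of all genes. The sum of RPM weights each cell alike, whatever its depth. Slc52a2, a riboflavin transporter, had 4681 RPM (1055 reads) in cell 12 of pool 1, which was 89.2% of its summed RPM but 29.03% of its reads in that pool, and 149 RPM in the next cell. The magnesium carrier Slc41a1 had 4560 RPM and the lysosomal amino acid carrier Slc36a1 3316 RPM in cell 2 of pool 1, with 86.6% and 77.0% of their summed RPM and 64.6% and 19.1% of their reads in that pool. Slc25a18 had 610 RPM, 57.1% of its summed RPM, in cell 4 of pool 4. These 3 cells had 225363, 258130 and 254182 reads, among the fewest of the 49, and the 5 shallowest cells (10.2% of cells) held the highest level of 26 members (18.3%), beside 15.9% of all genes. The part of low depth in these single high values was not tested.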

How the data were processed

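Single neurons labelled with FlashTag were collected by patch pipette, and their cDNA, made with the SMART-Seq v4 3′ DE kit, was sequenced in 5 library pools. Reads were aligned to GRCm38 (mm10) with STAR and counted with HTSeq. Versions, annotation and strand setting are not given in the sources used here. The authors normalized the counts, and the deposited table holds RPM, not log2 transformed, for 49 cells. Dividing by the smallest step of each cell gave whole reads for 100% of the values above 0 (within 0.01), and these were used for depth, detection and thinning only. There are no molecular identifiers, so the Clopper-Pearson intervals (95%) cover counting error only. No count model was fitted, since no replicate can be told within the single group.

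The members, gene lists, pairs and tests were chosen with earlier results of these data known. Presence was set at 10 RPM, log2 values had a pseudocount of 1, and spread was the SD minus a lowess fit (fraction 0.2) against the mean. Named were the 10 Slc25 and 15 other members with the highest median, the 5 most and 3 least variable of each set, the members of the pairs and carrier lists, the 2 highest of each role, and the 3 with the largest pool share, 66 genes in all by this rule; members of single high cells, and those singled out for a marker list, were named after their values were seen. Of 18 pairs, 15 had both genes in the table, and some genes and pairs are not reported here. All 142 symbols matched 1 gene of GENCODE M21, and the exons of 44 overlap another gene. Promoter sequences are those of RefSeq (GRCm38.p6). Scripts were tested on simulated data. Alternatives were other limits of presence, other pseudocounts, thinning, 2 other scalings (edgeR's TMM, and reads neither hemoglobin nor mitochondrially encoded), RPM per kilobase and leaving out each pool. The tools were edgeR 4.0.16 in R 4.3.3 and, in Python 3.11.15, statsmodels 0.14.6, scipy 1.17.1, matplotlib 3.10.9, numpy 2.4.6 and pandas 2.3.3. Radial positions were not analysed here.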

Additional observations from a re-analysis of the deposited data

How the results depend on the processing

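Of 202 recomputed values for 26 results, 185 stayed within set limits. These were 1.5 times for a count or a pool share, and the interval for a share of cells. For a sum the limit was the SD between cells, 1690 RPM for Slc25 and 2624 RPM for the other families. For r it was the SD of r between pools. Both kinds of SD are wide, so the 185 is no measure of robustness. The number of members present in at least 25 cells depended on the limit. For the 24 Slc25 carriers it was 12 at 10 RPM, 19 at 1 read and 5 at 100 RPM. For the 118 other members it was 22, 86 and 3, and 62 at 1 RPM. The share of all genes (38.2%) was taken at 10 RPM only. At the other limits neither set can be set beside it. The Slc25 share was the higher at 1 read, at 10 RPM and at 100 RPM. The shares of both sets lay closer together at 1 read than at 10 RPM. Leaving out Slc25a4 lowered the median Slc25 sum from 4193 to 2082 RPM. The number of Slc25 carriers above the 90th percentile of variability was 1, and became 0 with a pseudocount of 10 and 2 after thinning, without pool 2 and without pool 5. The number for the other families rose from 9 to 14 without pool 4. The r of the Slc25 and OXPHOS sums was 0.036 within pool 2, against 0.49 over all cells. Slc25a4 exceeded Slc25a5 in 100% of cells without pool 5.

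Per kilobase of exons, an alternative chosen after seeing the data, Slc25a33 exceeded Slc25a36 in 52.2% of cells, against 32.6% by RPM. On the same scale the share was 66.7% for Slc16a7 over Slc16a1, 36.2% for Slc1a1 over Slc1a2 and 23.9% for Slc38a1 over Slc38a2. Without the cell with the most hemoglobin, a choice also made after seeing the data, 13 Slc25 carriers and 25 other members were present in at least 24 of the other 48 cells. The share of all genes was not recomputed for these cells. No paired analysis was possible because there is 1 group, and no replicate could be left out. Depth limits the shallowest cells, in which 10 RPM is only a few reads.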
